A study of Mus musculus with 2 samples.

Results

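Among the glial tumor cells of a mouse glioblastoma model, 1615 cells were set apart by RNA of Mfap4, Cpxm2, Moxd1 and Adam12. They were selected on their counts of unique molecular identifiers (UMIs). A cell needed at least 200 genes, at most 10% mitochondrial UMIs, a ratio of 0.8 or more between the logarithms of its gene and UMI numbers, and no fewer UMIs than the median of its count matrix divided by 3. It also needed at least 2 UMIs of Olig2, a transcription factor of the oligodendrocyte lineage, at most 3 UMIs of C1qa, C1qb and C1qc together, at most 1 of Top2a and none of Car9. These conditions removed macrophages, most dividing cells and cells with a UMI of Car9, a hypoxia gene. They left 6940 cells, called Olig2 tumor cells here, of 54574 past quality control and 56943 barcodes in all. The last condition was at least 2 UMIs each of 3 or more of the 4 marker genes. The 1615 cells that met it are the members, and the 5325 that did not are the other Olig2 tumor cells.

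The tumors were grown in the brains of C57BL/6J mice from a Trp53+/- and Nf1+/- line of mouse glioblastoma stem cells (mGSC), so every tumor of both groups carries both alleles and comes from the same line. The mice were then given vehicle or Xevinapant by oral gavage daily for a week. Xevinapant is a SMAC mimetic, a small molecule that blocks inhibitor of apoptosis proteins (IAPs). The mice were females bought as young adults. Each treatment group has its own pool and batch date, so pool, batch date and treatment cannot be told apart.

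Oligodendrocyte precursors are dividing glial cells that express Olig2, Sox10 and Pdgfra and mature through a committed stage into myelin-forming oligodendrocytes. More primitive glial progenitors express Egfr, Sox9 and Nes and little of the myelin program. Glioblastoma cells occupy related states, named OPC-like, astrocyte-like (AC-like), neural progenitor-like (NPC-like) and mesenchymal-like (MES-like) after the cells they resemble. The 4 marker genes code for proteins at or outside the cell surface or in the secretory path. Mfap4 is a glycoprotein of elastic microfibrils, Cpxm2 belongs to the carboxypeptidases, Moxd1 to the copper-dependent monooxygenases and Adam12 to the disintegrin metalloproteases. In the mm10 annotation Mfap4 lies at chr11:61485431-61488900 on the plus strand and Moxd1 at chr10:24223517-24302790, also plus. Cpxm2 and Adam12 are on the minus strand of the same chromosome, at chr7:132032687-132154739 and chr7:133883199-134232146.

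Each group was deposited as 4 count matrices of fixed cells read through gene probes. Matrices 1 and 3 of the vehicle group and matrices 1 and 2, and 3 and 4, of the Xevinapant group were much alike: the summed counts of their Olig2 tumor cells differed by 2.86 to 7.79 times the sampling noise (chi-square per degree of freedom), against 17.6 to 49.7 for the 9 other pairs. Each alike pair was joined, which left 3 vehicle and 2 Xevinapant samples. The design has 4 tumors in each group, which equals the number of matrices, so results are also given with each matrix as 1 mouse where that changes them. The labels do not say which animal a matrix came from, and the spread between samples may in part be technical. Members held 2062106 to 9077969 UMIs per sample. Of all barcodes, 27.4% shared their droplet part with another matrix of the same group, as did 25.8% of the members, and 10 members shared a droplet with another member. No whole barcode occurred in more than 1 matrix of a group, while 1413 occurred in both groups, 19 of them members. Among the highest Scrublet doublet scores were 2.41% of the members, 1.82% of the other Olig2 tumor cells and 6.62% of all cells.

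The values that chose the members are given first, as a description without a test. Summed over each sample and given as CPM, the counts scaled to a total of 1e+06 UMIs, Mfap4 stood at 1115, 1254 and 1210 CPM in the members of vehicle 1 and 3, vehicle 2 and vehicle 4, and at 701 and 1182 CPM in those of Xevinapant 1 and 2 and Xevinapant 3 and 4. The other Olig2 tumor cells of the same samples had 423, 512, 643, 208 and 446 CPM. Mfap4 was thus lowest in both populations of Xevinapant 1 and 2. Cpxm2 had 223, 382, 343, 194 and 244 CPM in members against 28.2, 83.0, 166, 22.9 and 55.4 CPM in the others, in the same order of samples. Its contrast was narrowest in vehicle 4, where the other cells had most of it. Adam12 had 324, 471, 244, 278 and 228 CPM in members against 120, 168, 83.2, 102 and 95.5 CPM. Moxd1 had 162, 225, 88.1, 137 and 115 CPM against 55.1, 71.8, 33.1, 51.0 and 43.1 CPM. For Adam12 and Moxd1, vehicle 2 was highest in both populations.

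The members reached the selection through different sets of markers. Mfap4, Cpxm2 and Adam12 without Moxd1 made up 761 members (47.1%), and all 4 markers 407 (25.2%). The set without Cpxm2 held 230, the set without Adam12 165 and the set without Mfap4 only 52. The tumors used the markers unequally. Moxd1 reached 2 UMIs in 34.1% of the members of vehicle 4 and in 56.2% to 68.6% of those of the other 4 samples. Cpxm2 did so in 95.5% of the members of vehicle 4 and in 63.8% of those of vehicle 1 and 3. The members with all 4 markers were 39.8% in vehicle 2 and 15.6% to 25.8% elsewhere.

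The selection cuts through a graded range. Of the 6940 Olig2 tumor cells, 1672 had no marker at 2 UMIs, 1935 had 1, 1718 had 2, 1208 had 3 and 407 had 4. Just outside the selection, cells with 2 markers held on average 11.3 UMIs of Mfap4, 2.06 of Cpxm2, 0.974 of Moxd1 and 2.54 of Adam12. Just inside it, cells with 3 markers held 17.8, 4.35, 1.59 and 4.36 UMIs of the same genes. Depth differed along the same steps, with a median of 8955 UMIs at no marker, 11911 at 2, 14433 at 3 and 16057 at 4. Members had a median of 14910 UMIs and 5419 genes, and the other Olig2 tumor cells 10440 UMIs and 4542 genes. With every cell thinned to 5000 UMIs the median was 2917 genes in members and 2911 in the others, with 26 and 467 shallower cells left out.

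Each marker was also read in cells grouped by the other 3, as a description, since the selection used all 4 of them. The groups were formed on the full counts, and only the marker read was thinned to 5000 UMIs per cell. Olig2 tumor cells with at least 2 UMIs of all 3 others held a mean of 6.66 UMIs of Mfap4, against 1.67 in cells with fewer than 2 UMIs of each of them. For Cpxm2 these means were 1.56 and 0.211 UMIs, for Adam12 1.55 and 0.495, and for Moxd1 0.543 and 0.268. Each of the 4 means was higher beside the other markers in all 5 samples. After thinning, 91.4% of members, 51.1% of the other Olig2 tumor cells and 13.0% of 908 C1q cells had a UMI of Mfap4. C1q cells are macrophages and microglia with at least 10 UMIs of the C1q genes and none of Olig2, and those thinned had a median of 9414 UMIs before thinning.

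The glial name was held against genes that the selection did not count, with a mixed outcome. Of 19 precursor genes, 8 were lower in the members of all 5 samples, Sox10 and Nkx2-2 among them, and 4 were higher. Among all genes at 20 CPM or more 24.5% were lower and 17.9% higher. Olig1, the partner of Olig2, stood at 1104 ± 217 CPM in members (SD, n = 5 samples) and at 902 ± 198 CPM in the other Olig2 tumor cells. Pdgfra, the growth factor receptor of oligodendrocyte precursors, had 278 ± 64.0 CPM and 294 ± 76.1 CPM, and Cspg4, their surface proteoglycan, 626 ± 157 CPM and 578 ± 99.1 CPM. Pdgfra was higher in 1 of 5 samples and Cspg4 in 4 of 5. Along chromosomes the members also resembled the other Olig2 tumor cells. Set against the C1q cells of the same sample, the mean log2 ratio of chromosome 19 was lowest in both, at -1.02 ± 0.15 in members and -0.94 ± 0.09 in the others. Chromosome 4 came next, at -0.66 ± 0.04 and -0.60 ± 0.04. Over 20 chromosomes the 2 profiles correlated at 0.949 to 0.991 within a sample, with the same C1q cells as the reference of both. No chromosome differed between them by more than 0.26 on the log2 scale in any sample.

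Markers of other cell types were scarce in the members. The 16 endothelial genes summed to 25.2 to 71.9 CPM per sample, against 40.2 to 94.9 CPM in the other Olig2 tumor cells. The 18 genes of lymphocytes and neutrophils summed to 3.75 to 11.6 CPM against 7.09 to 18.2 CPM, with 1 of them at 0 in the members. The 17 microglia and macrophage genes, the C1q genes of the selection left out, summed to 114 to 211 CPM against 83.3 to 223 CPM. Fibroblast genes were different, at 1001 to 6781 CPM against 486 to 1189 CPM, and are taken up with the collagens. The 14 pericyte genes summed to 634 to 1059 CPM against 619 to 937 CPM. Most of that was Cspg4, also a precursor gene, which alone had 478 to 888 CPM against 496 to 747 CPM. The 7 red blood cell genes summed to 16.1 to 442 CPM against 77.5 to 262 CPM. Of 12 neural crest and Schwann cell precursor genes, many of them shared with the precursor list, 7 were lower in all 5 samples and 1 higher. Over all genes 24.5% were lower and 17.9% higher. The part of these other cells in the results was not tested beyond the values given.

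**Figure D1:**
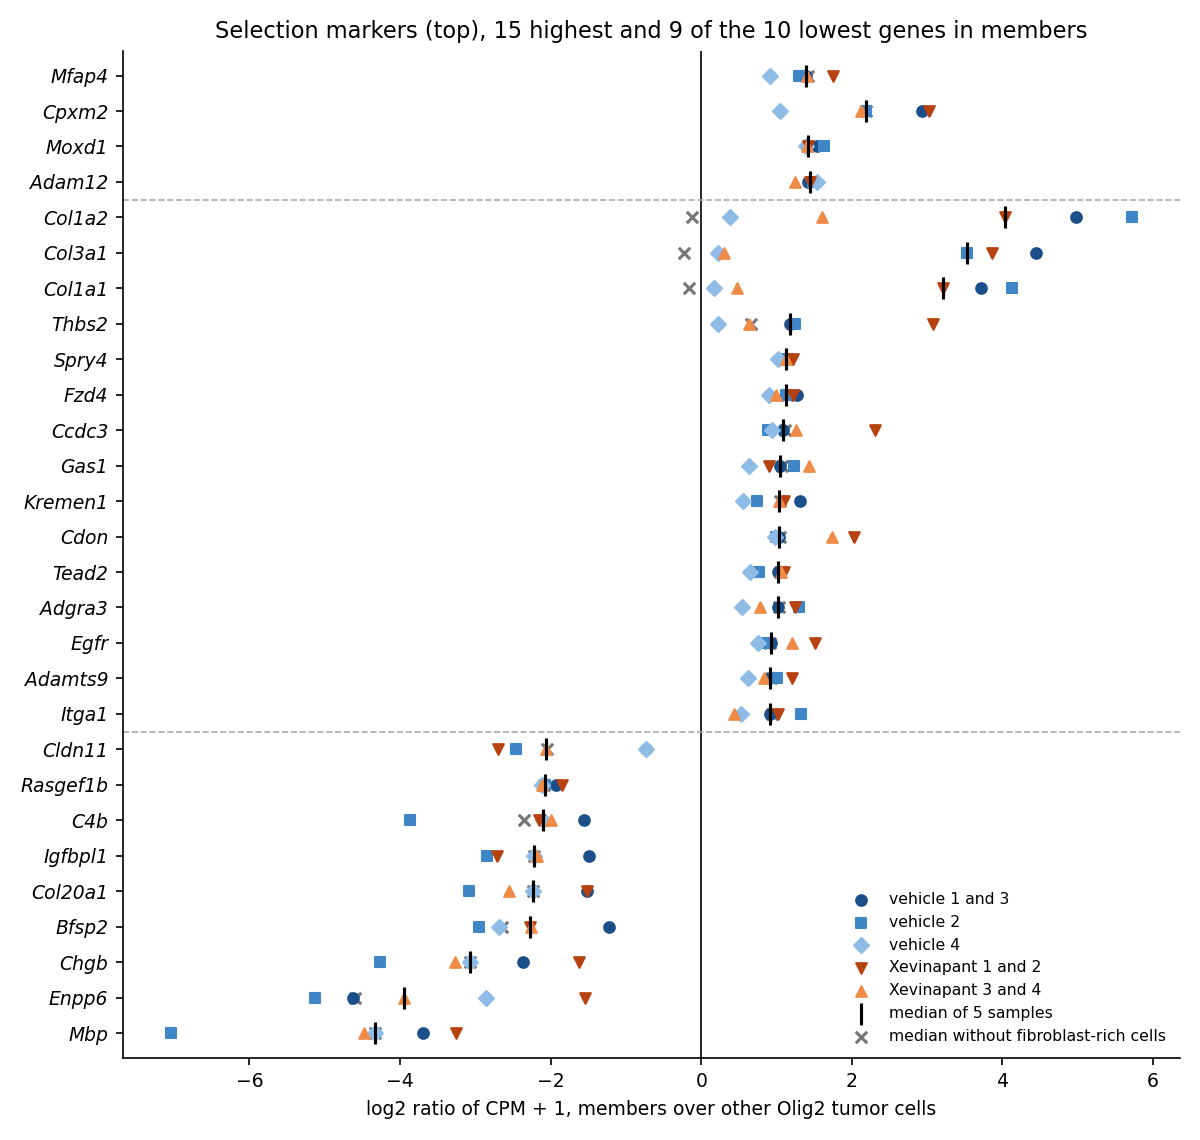
The log2 ratio of CPM (plus 1 CPM) in members over other Olig2 tumor cells is plotted for the 4 selection markers, the 15 highest and 9 of the 10 lowest genes. Each symbol is 1 of the 5 samples, the bar is their median, and the cross is the median after cells with 20 or more fibroblast UMIs were left out of both populations, where only the 3 collagens cross to below 0.

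Members were next set against the other Olig2 tumor cells of the same sample over all genes, with 1 CPM added to each level. The selection used this contrast, so the ratios describe the members and carry no test. Of 8971 genes at 20 CPM or more in either population, 1609 (17.9%) were higher in members in all 5 samples and 2196 (24.5%) lower. Of 5915 genes at 50 CPM or more, 12 (0.203%) were at least 2-fold higher by the median of the samples and higher in all 5, and 69 (1.17%) at least 2-fold lower and lower in all 5.

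Among the genes higher in members was Egfr, the receptor of epidermal growth factor. Egfr had 205, 288 and 415 CPM in the members of vehicle 1 and 3, vehicle 2 and vehicle 4 and 244 and 383 CPM in those of Xevinapant 1 and 2 and Xevinapant 3 and 4. The other cells of these samples had 108, 157, 246, 85.2 and 165 CPM. Members were higher in each pair, by a median of 0.92 on the log2 scale, although the lowest members' value lay below the highest value of the others. Sox9, a transcription factor of neural stem cells and astrocytes, had 538, 704, 965, 594 and 743 CPM in members against 306, 416, 711, 327 and 426 CPM. The transcription factor gene Prrx1 was higher by a median of 0.69, and Nes, the intermediate filament of neural progenitors, by 0.54, both in 5 of 5 samples.

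Not every gene of the progenitor list followed. Of its 25 genes at 20 CPM, 11 were higher in all 5 samples and 2 were lower, against 17.9% and 24.5% over all genes. The median log2 ratio was 0.20 against -0.02 over all genes. The Notch ligand gene Dll3 stood at 959 ± 303 CPM in members and 726 ± 210 CPM in the others and was higher in 4 of 5 samples. Hopx, a marker of outer radial glia, stood at 28.6 CPM against 49.2 CPM. Sox2, the stem cell factor, had 540 ± 67.0 CPM in members and 622 ± 66.2 CPM in the others and was higher in 1 of 5 samples. Primitive therefore describes part of the list only.

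The list of receptor tyrosine kinase signalling and its feedback was mixed, with 13 of 28 genes higher in all 5 samples and 7 lower. Over all genes 17.9% were higher and 24.5% lower. Spry4, an inhibitor induced by ERK, had 117, 96.8, 83.3, 99.9 and 95.4 CPM in the members of the 5 samples and 53.6, 43.5, 40.6, 42.4 and 43.0 CPM in the other cells. The log2 ratio kept within 1.02 and 1.22. Etv5, an ETS transcription factor downstream of ERK, had 428 ± 63.3 CPM against 229 ± 37.3 CPM. Dusp6, the phosphatase that dephosphorylates ERK, had 196 ± 28.4 CPM against 121 ± 7.30 CPM. Etv4, a relative of Etv5, was higher by a median of 0.79, with 0.13 in vehicle 2 and 1.03 in Xevinapant 1 and 2. Among the lower ones was Erbb3, the neuregulin receptor of the oligodendrocyte and Schwann cell lines, at 30.4 CPM against 55.6 CPM.

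Igf2, a growth factor of fetal tissue, belongs to the same list and was picked out after its values were seen. It had 39270, 41730, 45000, 37890 and 30480 CPM in the members and 24760, 29960, 33170, 21360 and 20470 CPM in the other cells, in the order of samples above. It was higher in the members of every sample, by 0.44 to 0.83 on the log2 scale. The gene lies in a stretch of chromosome 7 where most genes were above the C1q cells in both populations. The level stepped up with the number of markers from 17270 ± 3131 CPM at none to 43620 ± 5792 CPM at all 4 (SD, n = 5).

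Among the other genes of highest ratio were Gas1 and Cdon. Gas1 and Cdon, co-receptors of Hedgehog, had 198 ± 58.6 and 188 ± 62.5 CPM in members against 95.9 ± 32.9 and 78.8 ± 41.8 CPM. Cdon was the less even, with log2 ratios of 0.97 to 1.03 in the vehicle samples and 2.03 and 1.74 in Xevinapant 1 and 2 and Xevinapant 3 and 4. Fzd4, a frizzled receptor, and Kremen1, a receptor of the WNT inhibitors of the Dickkopf family, had median log2 ratios of 1.13 and 1.03. Tead2, a DNA-binding partner of YAP and TAZ, had 1.02, and Adgra3, an adhesion receptor, 1.02 as well. The WNT target gene Axin2 went the other way, at 52.0 CPM against 82.8 CPM. Over whole lists the count was 7 higher and 3 lower of 20 WNT genes and 5 higher and 4 lower of 16 Notch genes. The shares over all genes were 17.9% higher and 24.5% lower.

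**Figure D2:**
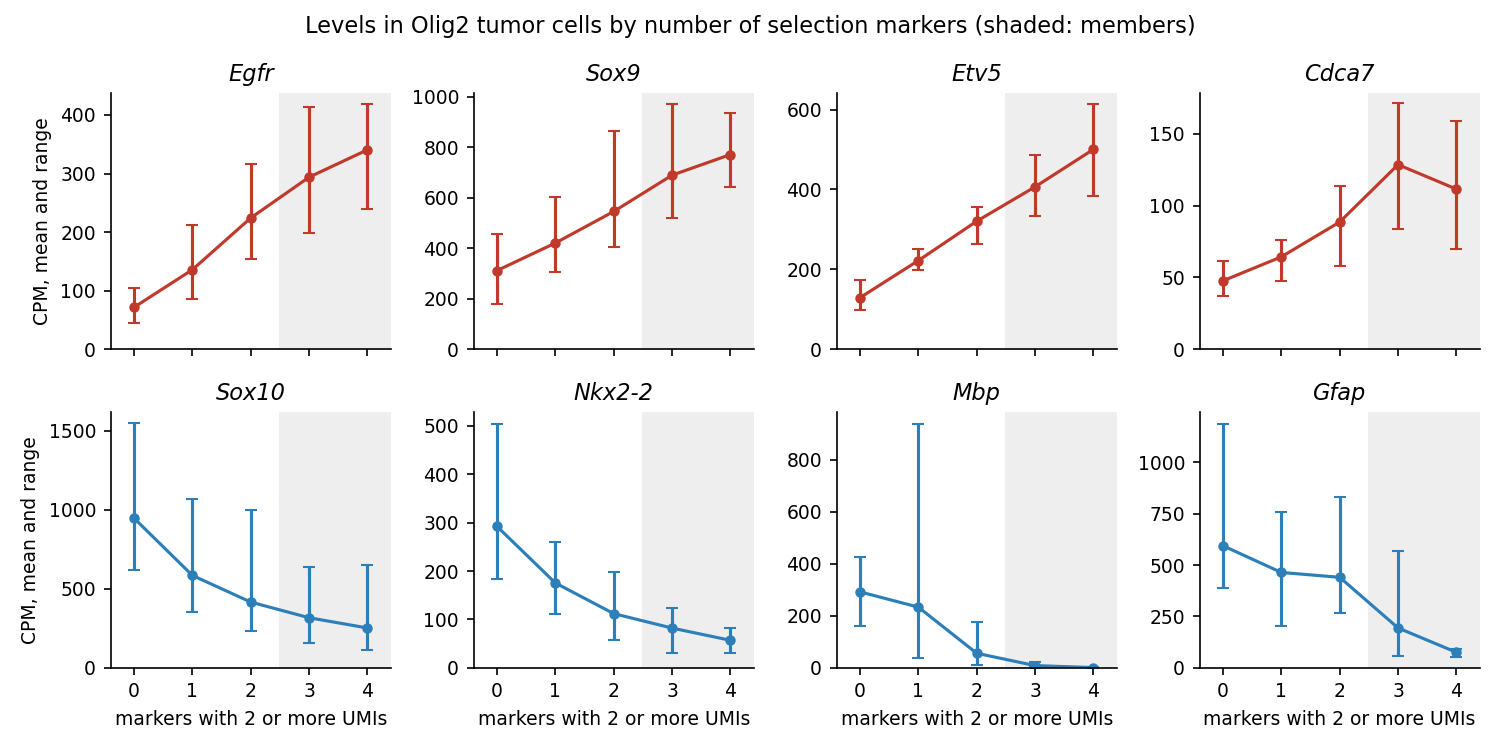
Levels of 8 genes in CPM are plotted against the number of selection markers with 2 or more UMIs in Olig2 tumor cells. Points are the mean of the 5 samples, bars run from the lowest to the highest sample, and the shaded steps are the members. Egfr climbs from 71.7 to 340 CPM and Sox10 descends from 947 to 252 CPM.

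Several of the genes higher in members rose with the number of markers outside the selection too, along steps at which median depth also rose. Spry4 rose to 99.8 CPM with 3 markers and had 86.8 CPM with all 4. Egfr had a mean of 71.7 ± 26.7 CPM in Olig2 tumor cells without a marker, 136 ± 49.3 with 1, 224 ± 59.7 with 2, 294 ± 93.3 with 3 and 340 ± 76.1 with all 4 (SD, n = 5 samples). Etv5 went from 129 ± 32.3 to 500 ± 100 CPM over the same steps. In the plot of levels by number of markers Egfr and Sox9 rose at every step, while Gfap lost most CPM at the selection limit. Gfap had 464 CPM with 1 marker, 441 with 2, 194 with 3 and 75.4 with 4, so it fell on within the members. Between 2 and 3 markers Mbp fell from 56.0 to 8.6 CPM and Cdca7 rose from 88.5 to 128 CPM. With 4 markers Mbp had 0.942 CPM and Cdca7 111 CPM. The cells without a marker formed the far end, and against them alone 89 genes were at least 2-fold higher and 198 at least 2-fold lower in members.

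The lowest ratios included genes of the maturing oligodendrocyte. Mbp, myelin basic protein, had 10.4, 2.03, 3.86, 16.5 and 2.495 CPM in the members of the 5 samples and 146, 399, 96.9, 167 and 76.7 CPM in the other Olig2 tumor cells, which is a median log2 ratio of -4.33. Enpp6, a marker of newly forming oligodendrocytes, stood at 10.1 ± 16.4 CPM against 73.5 ± 34.5 CPM, and most of the members' value came from the 39.3 CPM of Xevinapant 1 and 2. Mag and Opalin, late myelin genes, had 0.675 and 3.89 CPM in members against 28.4 and 49.2 CPM. The 16 genes of committed precursors and oligodendrocytes at 20 CPM were lower in the members of all 5 samples without exception, with a median log2 ratio of -1.96. Over all genes 24.5% were lower. In summed level the members had 0.440 to 0.503 times the value of the other cells.

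The precursor list itself was split. Sox10, the lineage factor that turns on myelin genes, had 326, 145, 164, 643 and 228 CPM in members against 662, 382, 354, 1246 and 517 CPM, lower in every sample by 0.95 to 1.39 on the log2 scale. Nkx2-2, a factor of the differentiating precursor, had 76.6 ± 31.2 CPM against 192 ± 92.8 CPM. Neu4 and Tnr, the latter an extracellular matrix glycoprotein of this lineage, had median log2 ratios of -1.19 and -0.91. Ednrb, the endothelin receptor, had -0.94 and the tetraspanin gene Cd9 -0.52. Along the marker steps Sox10 had 947 ± 372 CPM without a marker and 252 ± 226 CPM with all 4.

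**Figure D3:**
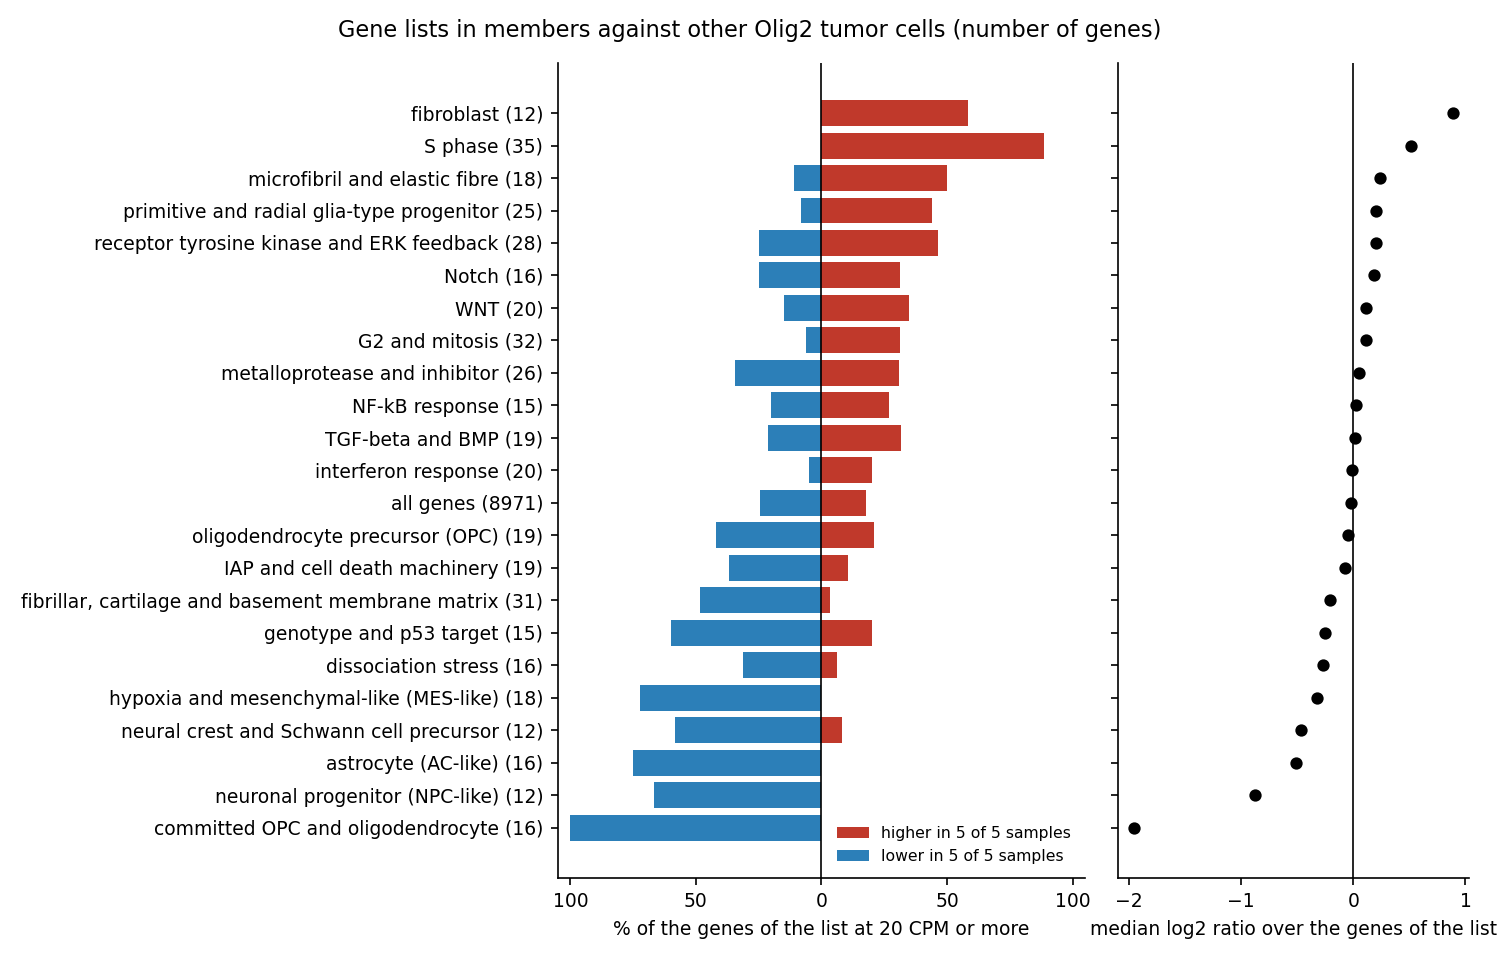
For each gene list, with its number of genes at 20 CPM or more, the left panel gives the percent of genes higher (right of 0) or lower (left of 0) in the members of all 5 samples, and the right panel the median log2 ratio. S phase and fibroblast genes lie at the upper end, and all 16 genes of committed precursors and oligodendrocytes at the lower.

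The lists of other glioblastoma states were set against the same cells, and for some the outcome changed with the comparison cells. Of 16 astrocyte genes, 12 were lower in all 5 samples and none higher, beside 24.5% lower and 17.9% higher over all genes. Gfap, the astrocyte filament, had 144, 71.5, 109, 56.7 and 434 CPM in members against 402, 385, 378, 398 and 875 CPM, and the members of Xevinapant 3 and 4 reached the level of the other cells elsewhere. S100b stood at 115 ± 66.8 CPM against 244 ± 151 CPM. Of 12 NPC-like genes, 8 were lower and none higher, but against Olig2 tumor cells with none of the markers none was lower and 1 was higher. Igfbpl1, one of them, had 11.8 ± 15.5 CPM against 59.6 ± 70.9 CPM. Chgb, a secretory granule protein outside the list, had 8.16 ± 7.61 CPM against 75.0 ± 55.4 CPM. Neither followed the marker steps, since Olig2 tumor cells with exactly 1 marker had most, at 91.4 CPM of Igfbpl1 and 139 CPM of Chgb. Against cells with no marker the log2 ratio of Igfbpl1 was -0.13.

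Of 18 hypoxia and MES-like genes, 13 were lower in all 5 samples and none higher, beside 24.5% lower and 17.9% higher over all genes. Against Olig2 tumor cells with none of the markers 5 were lower and 1 higher, beside 2118 lower of 8971 over all genes. Cells with a UMI of Car9, itself a hypoxia gene, had been left out of both populations. Vegfa, the endothelial growth factor, had 288, 340, 272, 479 and 285 CPM in members against 493, 531, 519, 811 and 571 CPM. Slc2a1, the glucose transporter, had 107 ± 18.2 CPM against 181 ± 22.6 CPM. Among p53 targets and genes of the genotype, 9 of 15 were lower and 3 higher, with Cdkn1a, a cell cycle inhibitor, at 37.3 CPM against 62.8 CPM. Of 16 genes induced by cell dissociation, 5 were lower and 1 higher, with Fos at 120 ± 75.8 CPM against 229 ± 137 CPM.

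DNA replication genes were higher in members although Top2a was held at 1 UMI or less in both populations. Of 35 S phase genes, 31 were higher in all 5 samples and none lower, with a median log2 ratio of 0.51. Over all genes 17.9% were higher and 24.5% lower. Cdca7, a gene of early S phase, had 124, 108, 169, 81.0 and 145 CPM in members against 68.9, 64.2, 92.7, 46.1 and 72.7 CPM. Mcm2, a subunit of the replicative helicase, had 272 ± 32.8 CPM against 177 ± 37.1 CPM, and the DNA glycosylase gene Ung 58.0 ± 9.66 CPM against 35.2 ± 6.36 CPM. The summed S phase level was 1.37 to 1.49 times that of the other cells in every sample, while the summed G2 and mitosis level was 1.05 to 1.12 times. Of 32 genes of G2 and mitosis, 10 were higher and 2 lower. Against other cells from a nearer range of UMI numbers, 33 of the 35 S phase genes were higher, beside 1645 of 8971 over all genes. Of the 32 genes of G2 and mitosis, 15 were then higher and 1 lower, beside 2015 lower over all genes. The median log2 ratio of G2 and mitosis was 0.19 there and 0.11 against all other cells. By mean UMIs per cell, these nearer cells were still shallower than the members in all 5 samples.

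The largest ratios of all belonged to fibrillar collagens, and these came from few cells. Col1a2 had 709, 189, 38.3, 1334 and 49.5 CPM in the members of the 5 samples and 21.5, 2.61, 29.2, 80.8 and 15.6 CPM in the other cells. Its log2 ratio ran from 0.38 in vehicle 4 to 5.72 in vehicle 2. Only 28 members (1.73%) held 20 or more UMIs of Col1a1, Col1a2, Col3a1, Dcn and Lum together, and they carried 97.2% of all UMIs of Col1a2, 94.6% of Col3a1 and 93.8% of Col1a1 in members. Of these 28 cells, 11 were among the 104 members of Xevinapant 1 and 2. Among the other Olig2 tumor cells 66 (1.24%) were as rich, and of 227 cells that missed the selection by Olig2 alone 59 (25.99%) were. After thinning to 5000 UMIs, 4.15% of members, 4.22% of the other Olig2 tumor cells and 9.03% of C1q cells had a UMI of Col1a2.

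Without the cells rich in fibroblast genes in either population the collagen ratios were below 0, a comparison added after the data were seen. The cells were left out by their UMIs of these same collagens with Dcn and Lum, so the fall is no independent check. The median log2 ratio was then -0.12 for Col1a2, -0.23 for Col3a1 and -0.16 for Col1a1, and that of the matrix glycoprotein gene Thbs2 went from 1.18 to 0.66. The fibroblast list had 7 of 12 genes higher and none lower before, and 4 higher and 4 lower after. Over all 8971 genes 1609 were higher and 2196 lower before, and 1675 higher and 2060 lower after. Without the cells rich in fibroblast genes Egfr had 0.91, Spry4 1.14 and Cdon 1.05. The S phase list then had 33 of 35 genes higher and the oligodendrocyte list 16 of 16 lower.

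Genes of the families to which the markers belong were mixed, beside 17.9% higher and 24.5% lower in all 5 samples over all genes. Of 18 microfibril and elastic fibre genes, 9 were higher and 2 lower in all 5 samples, with a median log2 ratio of 0.24. Without the cells rich in fibroblast genes 8 were higher and 3 lower, with a median of 0.06. In cells with 2 or more UMIs of Top2a only 1 was higher and 3 were lower, with a median of 0.02. Over all 8971 genes 1724 were higher and 2625 lower in those cells. Fbln1, fibulin 1, had 181 ± 52.6 CPM in members against 99.6 ± 37.2 CPM and Mfap2, a microfibril protein like Mfap4, 37.0 ± 13.1 CPM against 18.8 ± 6.50 CPM, while Fbln5 was lower by a median log2 ratio of -0.81. Of 26 metalloproteases and their inhibitors, 8 were higher and 9 lower. Mmp2, a gelatinase, had 196 ± 38.1 CPM against 98.5 ± 42.7 CPM, and Adam19, a relative of Adam12, and Adamts9, which cleaves proteoglycans, had median log2 ratios of 0.80 and 0.92. Adam11 and Adam23, relatives without protease activity, had -0.96 and -0.98. Cpxm1, the closest relative of Cpxm2 in the list, had 181 CPM against 138 CPM, and 1 of 7 genes of that list was higher and 1 lower. Of 19 genes of TGF-beta and BMP signalling 6 were higher and 4 lower, of 15 NF-kB response genes 4 and 3, and of 20 interferon response genes 4 and 1. Of 31 genes of fibrillar, cartilage and basement membrane matrix, 15 were lower and 1 was higher, with Col20a1 at 56.6 CPM against 208 CPM.

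The limit on Top2a left most cells with the markers out. Past quality control 15649 cells (28.7%) had 3 or more markers at 2 UMIs, and 86.6% of them had more than 1 UMI of Top2a. Among Olig2 cells with 2 or more UMIs of Top2a, 53.5% of 21284 had 3 markers (95% exact binomial interval 52.8% to 54.1%), and 23.3% of the 6940 with fewer (22.3% to 24.3%). The former were deeper, with a median of 21643 against 11384 UMIs. Thinned to 5000 UMIs before the rule was applied, the shares were 9.86% of 13118 and 8.25% of 10198 cells. Thinning also lowers Top2a counts, so cells moved below its limit and these sets are not those above. The thinned shares therefore do not tell depth and Top2a apart. The intervals cover counting error only.

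The same contrast was taken in cells with 2 or more UMIs of Top2a, where 1724 of 8971 genes were higher in all 5 samples and 2625 lower. Egfr had a median log2 ratio of 0.76 there, Spry4 0.71 and Cdon 0.91, while Mbp had -1.82. All but 1 of the 16 committed precursor and oligodendrocyte genes were lower in all 5 samples, with a median of -1.19. Of the 35 S phase genes, 13 were higher and 1 lower, with a median of 0.08. The progenitor list had 9 of 25 genes higher and 6 lower, with a median of 0.02, the precursor list 2 of 19 higher and 9 lower, and the interferon list 1 of 20 higher and 10 lower. The contrast in dividing cells was chosen after the data were seen. Its cells with 3 or more markers were deeper than the rest in every sample, and no comparison at like depth was made. In vehicle 1 and 3, 1343 such cells held 44286605 UMIs and the 2234 others 41565418 UMIs.

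**Figure D4:**
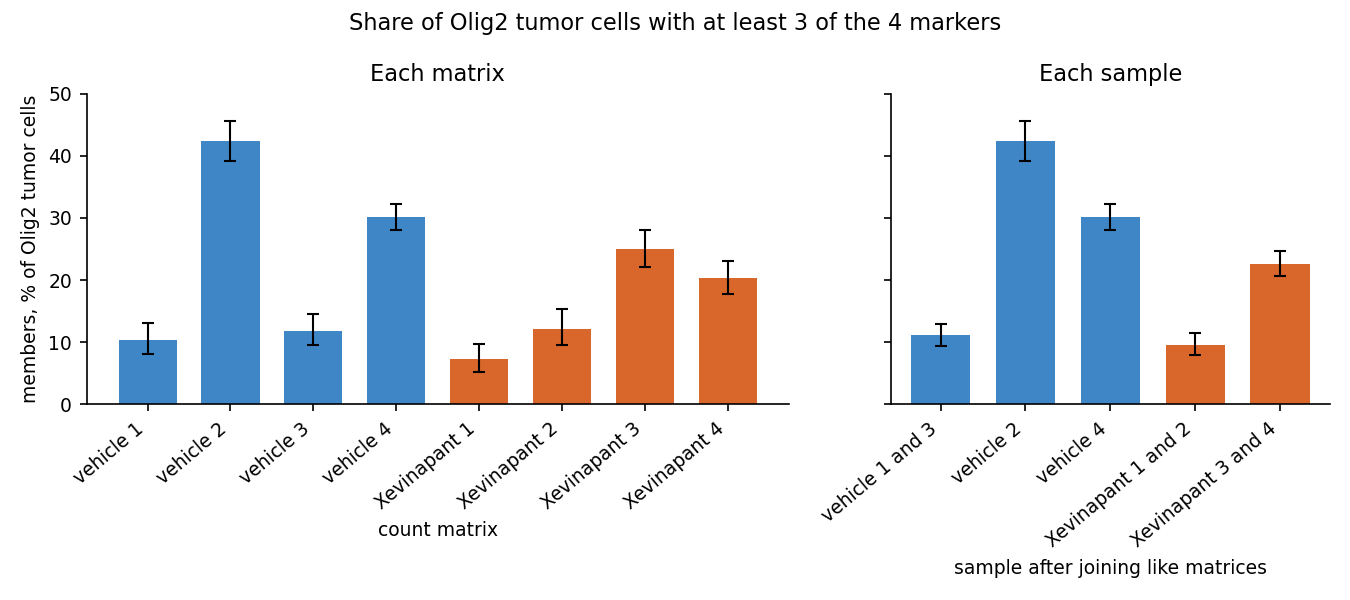
Bars give the members as a percent of Olig2 tumor cells in each of the 8 count matrices (left) and in the 5 samples after like matrices were joined (right), vehicle in blue and Xevinapant in orange, with 95% exact binomial intervals. Vehicle samples span 11.1% to 42.4% and Xevinapant samples 9.58% to 22.6%.

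The first question on treatment was whether members made up another share of the Olig2 tumor cells after Xevinapant. They were 11.1% in vehicle 1 and 3 (141 cells), 42.4% in vehicle 2 (407 cells) and 30.1% in vehicle 4 (575 cells). In Xevinapant 1 and 2 they were 9.58% (104 cells) and in Xevinapant 3 and 4 22.6% (388 cells). The groups overlapped, and samples of the same group differed by more than the groups did. The mean was 27.9% ± 15.7 (SD, n = 3) for vehicle and 16.1% ± 9.19 (SD, n = 2) for Xevinapant, a difference of -11.8 percentage points that did not pass the test (exact two-sided permutation test, p = 0.4). With 3 samples against 2 the exact permutation test cannot go below p = 0.1.

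The 5 samples kept their order at equal depth. With each cell thinned to 5000 UMIs the means were 12.3% ± 11.9 and 3.63% ± 2.28 (exact permutation p = 0.5). The rule was applied after thinning, so cells above the Top2a limit at full counts were included. Leaving out 1 sample moved the difference between -20.2 points, without vehicle 1 and 3, and -4.56 points, without vehicle 2. Counted as 8 mice, the difference was -7.48 points (exact permutation p = 0.457).

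The second question was which genes differed between vehicle and Xevinapant within the members. In UMI counts summed over the members of a sample, edgeR's quasi-likelihood test with Benjamini-Hochberg adjustment passed 0 of 11940 genes at 0.05 (0%), with 594 (4.97%) at an unadjusted p under 0.05. Without a filter on low counts edgeR passed 7 genes, all higher (0.0445%). DESeq2 on the same counts passed 12, of which 7 were higher after Xevinapant (0.0663% of the genes it adjusted) and 5 lower (0.0474%). In the other Olig2 tumor cells edgeR passed 0 of 12884 genes (0%), with 1320 at an unadjusted p under 0.05, and DESeq2 passed 122. With each matrix as 1 mouse edgeR passed 200 genes in the other Olig2 tumor cells and 0 in members, where 1191 had an unadjusted p under 0.05. For a difference in treatment effect between members and other Olig2 tumor cells edgeR passed 0 of 12724 genes (0%), with 514 at an unadjusted p under 0.05, and DESeq2 passed only Cdon. No gene passed the edgeR fit fixed as the test, and the following are values.

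**Figure D5:**
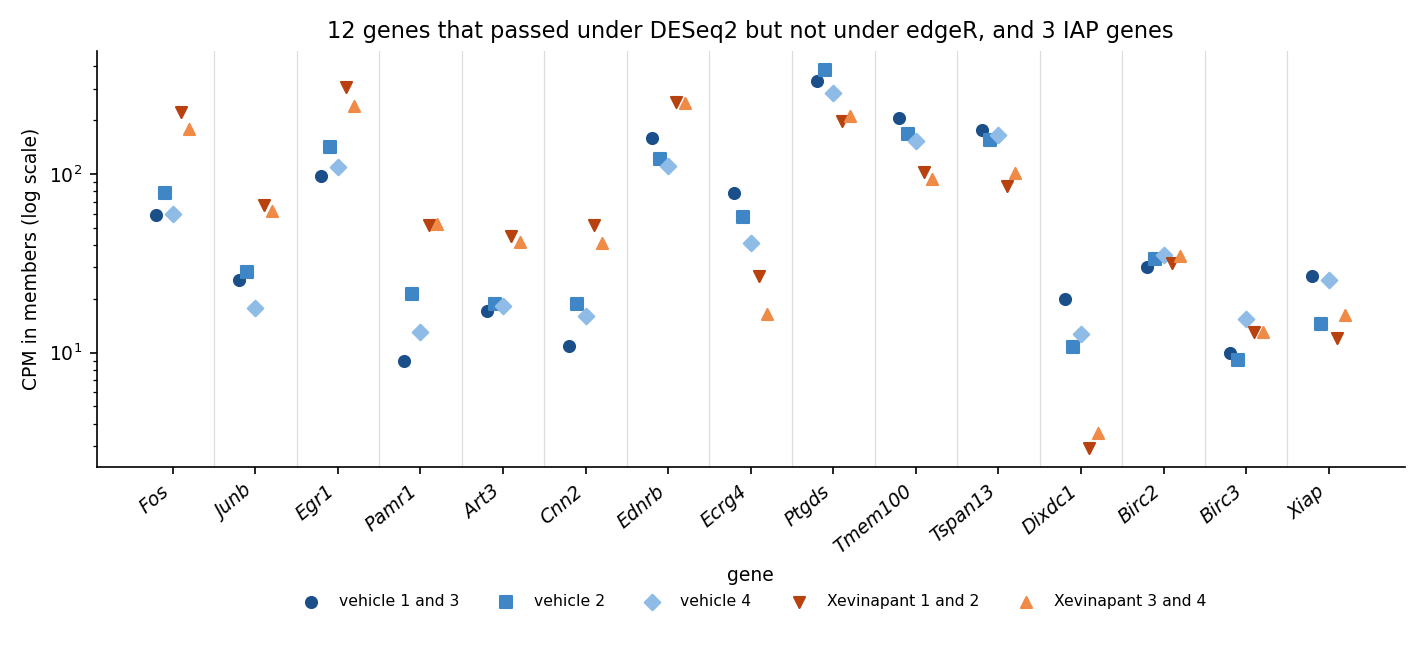
CPM in members on a log axis is plotted in each of the 5 samples for the 12 genes that passed under DESeq2 but not under edgeR and for Birc2, Birc3 and Xiap. In the 12 genes the vehicle and Xevinapant samples do not overlap, and in the 3 IAP genes they do. Of all genes tested, 21.3% do not overlap.

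The 12 genes included 3 immediate early genes, which had the smallest DESeq2 p-values among them. Fos had 58.6, 78.4 and 59.8 CPM in the members of the vehicle samples and 222 and 179 CPM in those of the Xevinapant samples, without overlap. Its log2 difference was 1.59 ± 0.18 (SE), with an edgeR p of 2.96e-05, an edgeR adjusted p of 0.354 and a DESeq2 adjusted p of 6.99e-09. The other Olig2 tumor cells had a log2 difference of 1.51 ± 0.26 with an edgeR adjusted p of 0.45, and the difference of both effects was -0.04 ± 0.24. Junb had 25.5, 28.4 and 17.8 CPM against 66.9 and 62.4 CPM, and Egr1 97.8, 141 and 110 CPM against 307 and 240 CPM. These genes also respond to tissue dissociation. Of 20 genes of the dissociation list that were tested, 6 had an unadjusted edgeR p under 0.05, against 4.97% of all genes. The summed level of that list was 1901 to 1977 CPM in vehicle and 2461 and 2514 CPM in Xevinapant members, and its part in these values was not tested.

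The other genes higher under DESeq2 were Pamr1, Art3, Cnn2 and Ednrb. Ednrb had 160, 121 and 111 CPM in vehicle and 253 and 250 CPM in Xevinapant members, with an edgeR log2 difference of 0.95 ± 0.17. Pamr1 had 8.97, 21.4 and 13.0 CPM against 51.9 and 52.7 CPM. Lower were Ecrg4, Ptgds, Tmem100, Tspan13 and Dixdc1. Ptgds, prostaglandin D synthase, had 332, 384 and 285 CPM against 197 and 212 CPM in members, while the other Olig2 tumor cells had 319, 318 and 402 against 369 and 318 CPM. The edgeR log2 difference of Ptgds was -0.72 ± 0.17 in members and -0.02 ± 0.16 in the others, and the difference of both effects, -0.67 ± 0.21, had an edgeR adjusted p of 0.9998. Over all 11940 genes tested, 21.3% had vehicle and Xevinapant samples that did not overlap.

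Lists that set the members apart from other cells gave no gene that passed edgeR for treatment. Of 41 S phase genes tested 5 had an unadjusted p under 0.05, with a median log2 difference of -0.36, and of 50 genes of G2 and mitosis 12 did, with -0.36 as well. Over all genes tested in members 4.97% had an unadjusted edgeR p under 0.05, and the median log2 difference was 0.00. The summed G2 and mitosis level was 2705, 3003 and 3216 CPM in vehicle and 2129 and 2533 CPM in Xevinapant members, without overlap. It was not particular to members, since the other Olig2 tumor cells had 2540, 2784 and 3072 CPM against 1967 and 2272 CPM. The summed S phase level of these other cells was 2343, 2319 and 2507 CPM in vehicle and 1692 and 2077 CPM in Xevinapant samples. The groups did not overlap there. Of all single genes tested, 21.3% did not overlap either. Members were deeper after Xevinapant, with median UMIs of 13815, 11768 and 14682 in vehicle and 19032 and 19628 in Xevinapant samples. Top2a, held at 1 UMI or less at any depth, stood at 29.3, 37.6 and 34.9 CPM in vehicle and 22.8 and 21.6 CPM in Xevinapant members. The part of depth and of this limit in the lower cell cycle levels was not tested. Of 18 astrocyte genes 6 had an unadjusted p under 0.05, with a median of 0.58, and of 16 committed precursor and oligodendrocyte genes none did, with 0.48. The fibroblast list had a median of 1.07, with 1 of 21 genes under 0.05 and 10.6% of the members of Xevinapant 1 and 2 rich in fibroblast genes.

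None of the genes that code for the targets of Xevinapant passed the test in members. Birc2, which codes for cIAP1, had 30.2, 33.2 and 35.0 CPM in vehicle and 31.5 and 34.9 CPM in Xevinapant members, a log2 difference of 0.00 ± 0.17 (edgeR adjusted p = 0.999). Birc3, which codes for cIAP2, had 9.92, 9.03 and 15.3 CPM against 13.1 and 13.0 CPM, a log2 difference of 0.15 ± 0.33. Xiap had 26.9, 14.4 and 25.6 CPM against 12.1 and 16.2 CPM, a log2 difference of -0.63 ± 0.33 (edgeR adjusted p = 0.922). Of 28 genes of IAPs and cell death that were tested none had an unadjusted edgeR p under 0.05, beside 4.97% of all genes. Against the other Olig2 tumor cells, 7 of 19 IAP and cell death genes were lower in the members of all 5 samples and 2 higher. Over all genes these shares were 24.5% and 17.9%. Birc2 was among the lower ones, at 33.0 CPM against 40.5 CPM. Fadd, an adaptor of death receptors, was higher in all 5 samples, at 684 CPM against 569 CPM.

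The genes of the engineered alleles did not pass the test either. Trp53 had 209, 281 and 213 CPM in vehicle and 258 and 246 CPM in Xevinapant members, a log2 difference of 0.09 ± 0.17. Nf1, the RAS regulator neurofibromin, had 146, 151 and 146 CPM against 153 and 160 CPM, without overlap, as in 21.3% of all genes tested. Its log2 difference was 0.07 ± 0.12 (edgeR adjusted p = 0.968). UMI counts of these genes do not tell the alleles apart.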

How the data were processed

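The series holds single-cell RNA of mouse tumors, read through gene probes in fixed cells, as 4 count matrices per treatment group. Per the labels, the authors mapped reads to mm10, counted UMIs with Cell Ranger 3.0 and used Seurat 4.0; the file headers name Cell Ranger 7.1.0. The deposited values are raw UMI counts for 19059 genes, without normalization. The labels name total RNA for vehicle and polyA RNA for Xevinapant, and the Xevinapant files carry the word Vehicle in their names; groups were taken from the labels. Pool and batch date coincide with treatment.

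The members, the gene lists and the joining of alike matrices into 5 samples were chosen with earlier results of these data known. UMI counts were summed over the cells of a sample. Treatment was tested with edgeR 4.0.16 (quasi-likelihood, TMM, filterByExpr, Benjamini-Hochberg over all genes tested, threshold 0.05) in R 4.3.3, with DESeq2 1.42.0 as an alternative. The difference of treatment effects was fitted with the sample as a block. Shares were tested with an exact two-sided permutation test. Genes of the selection were given as values only. Members against other Olig2 tumor cells are log2 ratios of CPM with 1 CPM added, without a test. Scrublet in scanpy 1.11.5 scored doublets, which were kept. The test scripts were tested on simulated data.

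Named were the selection genes, per list the genes with the largest median ratios, the 15 highest and 10 lowest genes at 50 CPM or more with 1 direction in every sample, treatment genes past the threshold, and Birc2, Birc3, Xiap, Trp53 and Nf1. Since edgeR passed no gene, the 12 genes of DESeq2 were named in their place. Of the 10 lowest, 1 gene is not reported here. Igf2 and Sox2 were chosen after their values were seen. Intervals are exact binomial (Clopper-Pearson) at 95% and cover counting error only. Alternatives are listed under the dependence on the processing.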

Additional observations from a re-analysis of the deposited data

Results flagged for a closer look

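In 2 of 25 genes named from the contrast of members and other Olig2 tumor cells, 1 of the 5 samples lay far from the others by Dixon's criterion, which chance meets in about 1 of 20 groups. Ccdc3, a secreted protein, had a log2 ratio of 2.31 in Xevinapant 1 and 2 and 0.89 to 1.26 in the other 4 samples. C4b, a complement component, had -3.87 in vehicle 2 and -2.15 to -1.56 in the other 4. The cause was not tested in either gene.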

How the results depend on the processing

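No paired analysis was possible because the labels give the groups no shared replicate numbers. The difference in member share was negative under every alternative run, and leaving out 1 sample gave -20.2 to -4.56 percentage points. With 5 samples or fewer the exact test cannot pass the threshold, so its p says nothing of stability; with each matrix as 1 mouse it was 0.457. For treatment within members, where edgeR passed 0 genes, DESeq2 passed 12 and edgeR without a low-count filter 7, and leaving out 1 sample gave 0 to 1, the 1 without Xevinapant 3 and 4. In the other Olig2 tumor cells DESeq2 passed 122 genes and edgeR with each matrix as 1 mouse 200. For the difference of both effects DESeq2 passed 1, and leaving out 1 sample gave 0 to 4, the 4 without Xevinapant 3 and 4. Where this left 1 Xevinapant sample, it was assumed to vary like the vehicle samples. Against cells with none of the markers, 89 genes were at least 2-fold higher and 198 lower, in place of 12 and 69; these are the cells farthest from the members by construction. Against them the NPC-like list had 0 of 12 genes lower in place of 8, and the MES-like list 5 of 18 in place of 13. The log2 ratio reversed for 3 collagens. It was -2.61 for Col1a2, -2.43 for Col3a1 and -2.63 for Col1a1 with members limited to 1 UMI of 5 fibroblast genes, where the limit was set on members alone. It was -0.12, -0.23 and -0.16 without cells rich in these genes in either population, an alternative chosen after seeing the data. Of the other values of named genes in this contrast 250 moved by less than the spread between samples and 19 by more. With 5 samples of 104 to 575 members, a difference that did not pass may lie below what this depth can show.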

Other observations

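Windows of 5 Mb (mm10) with 10 or more genes numbered 324. For each window the log2 ratio of members over C1q cells was the median over its genes in each sample. The mean of these medians over the 5 samples had a median of 0.04 across windows. The highest window was chr7:140000001-145000000, with 59 genes. Its mean of medians was 1.88 in members (1.503 to 2.511 over the 5 samples) and 1.76 in the other Olig2 tumor cells (1.263 to 2.497). In members 49 of the 59 genes were above 1. The ratio was 2.71 for Igf2, 2.15 for Cttn, a regulator of cortical actin, 1.87 for Fadd, 1.80 for the RAS gene Hras, 1.74 for the tetraspanin gene Cd81 and 1.02 for Ccnd1, which codes for cyclin D1. The window next to it, chr7:135000001-140000000, had 0.33 over 12 genes, and chr7:130000001-135000000, which holds Cpxm2 and Adam12, 0.26 over 22 genes. The next highest windows were on chromosome X from 130000001, with 1.38, and on chromosome 15 from 90000001, with 1.32. The windows were looked at after the data were seen, and what sets the high one apart was not tested.

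Of the 1413 whole barcodes found in both groups, the higher UMI count was a median of 167.5 times the lower, and the lower had a median of 871 UMIs. Of the 19 members with such a barcode, 12 had fewer UMIs than the barcode in the other group.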
